A study of Mus musculus with 6 samples.

Results

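The synapsin and synaptotagmin genes encode proteins of the synaptic vesicle and of regulated exocytosis. Here 10 of them were followed in motor neuron samples of the mouse brainstem: Syn1, Syn2, Syn3, Syt1, Syt2, Syt3, Syt4, Syt5, Syt7 and Syt11. The members were all probe sets of the array that the platform annotation assigns to exactly 1 of these symbols. This gave 30 probe sets of 45037, for 10 genes of 18193, and 29 of the 30 passed the filter on dim signals. Motor neuron RNA from 3 wild-type (WT) and 3 SOD1 samples was hybridised to a mouse Affymetrix array after 2 rounds of T7 amplification. Sod1, after which the second genotype is called, encodes copper-zinc superoxide dismutase. No source used here gives the allele, the strain, the age and sex of the mice, the promoter of any transgene or whether animals were pooled. The labels number the 3 samples of each genotype without saying whether each is a different animal, and the p-values rest on the spread among them, which may be technical.

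Synapsins are phosphoproteins on the outer face of synaptic vesicles that tether them to actin and to each other, and their phosphorylation by calcium-dependent kinases releases vesicles from this reserve pool. Synaptotagmins are membrane proteins with paired C2 domains. In Syt1, Syt2, Syt3, Syt5 and Syt7 these domains bind calcium and couple its entry to membrane fusion, whereas Syt4 and Syt11 lack part of the calcium-binding residues. At the synapses that motor neurons make on muscle, Syt2 is the main fast calcium sensor of acetylcholine release.

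Each value below is a log2 signal, the log2 of the quantile normalised intensity with 16 added, and each change is SOD1 minus WT on that scale, which understates the change of dim probe sets. The median deposited intensity of an array was 267 to 315, and precision is limited by having 6 arrays. Motor neuron markers were present: Nefl, Nefm, Nefh, Prph, Chodl, Isl1, Ache, Slc18a3, Slc5a7, Uts2 and Chat were above the background level on all 6 arrays, and Mnx1 was at that level on 5. Glial markers were bright as well: Mbp and Cnp of oligodendrocytes had WT means of 16.68 and 15.54, and Aldoc of astrocytes had 16.35. The samples thus held RNA of other cells besides motor neurons. Xist, an RNA made from the inactive X chromosome of females, averaged 12.83 and 12.91 on SOD1 replicates 1 and 2, against 5.71 on SOD1 replicate 3 and 5.76 to 7.07 on the WT arrays. Xist thus moved with part of the SOD1 group, and estimates with Xist in the fit are given beside the calls and together after the last gene.

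The promoters of the genes whose probe sets fell, Syn1 and Syt2, and a promoter of the Syn1 paralogue Syn2, are printed below. RefSeq (GRCm38.p6) windows were found for 6 of the 10 genes, 9 windows in all. The 250 bases before each annotated start are shown 5′ to 3′ on the gene's strand, with motif matches in capitals. For Syn1 the capitals mark TTCAGCACC, the left part of the RE1 element bound by the neuronal repressor REST, and the cyclic AMP response element TGACGTCA. For Syn2 they mark GCGGGGGCG, a site of the EGR type, and the GC box GGGCGG. In the Syt2 windows they mark the GC box, read as GGGCGG or its complement CCGCCC, and in the later window also ATTGG, the complement of CCAAT.
Syn1, chrX:20920919-20921168, minus strand: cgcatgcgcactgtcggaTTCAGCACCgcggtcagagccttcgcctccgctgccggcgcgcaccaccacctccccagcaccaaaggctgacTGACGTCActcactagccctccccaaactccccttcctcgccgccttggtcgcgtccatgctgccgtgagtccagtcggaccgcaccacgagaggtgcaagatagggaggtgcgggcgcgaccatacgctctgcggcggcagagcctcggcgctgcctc
Syn2, chr6:115134652-115134901, plus strand: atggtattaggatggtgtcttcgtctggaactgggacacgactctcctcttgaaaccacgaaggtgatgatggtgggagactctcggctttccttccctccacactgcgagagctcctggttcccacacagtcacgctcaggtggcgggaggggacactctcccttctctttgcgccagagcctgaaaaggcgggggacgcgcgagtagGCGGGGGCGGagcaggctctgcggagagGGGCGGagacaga
Syt2, chr1:134646362-134646611, plus strand: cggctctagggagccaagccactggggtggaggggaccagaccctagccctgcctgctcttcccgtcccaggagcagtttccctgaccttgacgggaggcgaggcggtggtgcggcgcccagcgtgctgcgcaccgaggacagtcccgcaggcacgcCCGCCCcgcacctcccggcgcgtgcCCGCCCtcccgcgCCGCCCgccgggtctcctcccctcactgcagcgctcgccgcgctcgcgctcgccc
Syt2, chr1:134709050-134709299, plus strand: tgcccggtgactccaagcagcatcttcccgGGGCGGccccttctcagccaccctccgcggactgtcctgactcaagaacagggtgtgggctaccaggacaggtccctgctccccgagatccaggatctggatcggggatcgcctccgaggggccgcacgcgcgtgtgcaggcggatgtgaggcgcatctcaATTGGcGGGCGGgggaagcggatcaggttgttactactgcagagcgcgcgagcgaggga

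Both strands were searched, and the motifs were chosen with these sequences in view. TTCAGCACC occurred in 0.301% of the 32851 windows of all genes and in 1 of the 9 windows of the synapsins and synaptotagmins, that of Syn1, where it ran from 232 to 224 bases before the start. TGACGTCA occurred in 1.55% of all windows and again in Syn1 alone of the 9, from 159 to 152 bases before the start. GCGGGGGCG, in 2.57% of all windows, was found in the printed Syn2 window, where it overlaps a GC box. The GC box was common, in 32.7% of all windows and in 5 of the 9, those of Syn2 (the printed window), Syt1, Syt2 (both windows) and Syt11. CCAAT was in 33.8% of all windows and in 3 of the 9. Another Syn2 window, not printed, was among these 3 and held neither GCGGGGGCG nor a GC box. TATAAA, in 12.4% of all windows, was in 0 of the 9. The windows of Syn1 and Syt2 shared none of the searched motifs, which says nothing of the factors that act on them. The GC content was 68% for Syn1, 61.2% for the printed Syn2 window and 76% and 66.4% for the Syt2 windows, against a median of 52.4% over all windows.

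Syn1 and Syt2 each had 1 probe set that was lower in the SOD1 samples, and no synapsin or synaptotagmin probe set was called higher. Markers of other cells also differed between these samples, as given below. The Syn1 signal was 3.94-fold lower in SOD1 than in WT and that of the bright Syt2 probe set 1.98-fold lower (limma, adjusted p = 0.0317 and 0.0327, n = 3 arrays per group). These were 2 of the 29 probe sets tested, where 0.122% of all 27022 probe sets passed lower at an adjusted p under 0.05 and 0.0629% passed higher. The estimate was negative for 24 of the 29 and positive for 5, with a median change of -0.26, whereas over all probe sets tested 50.5% were negative and the median was -0.01. The negative estimates numbered 25 with values as deposited and 22 with each array centred on its median. Among the 29, the groups did not overlap for 4 with SOD1 lower and for 1 with SOD1 higher, against 9.81% and 10.5% of all probe sets. Split by family, 8 of 10 synapsin probe sets had a negative estimate (median -0.33) and 16 of 19 synaptotagmin probe sets did (median -0.26). At an unadjusted p under 0.05, 5 of the 29 were lower and 2 higher, against 7.58% and 7.09% of all probe sets. Members on 1 array share its RNA, and probe sets of 1 gene share their target, so these counts describe the genes and are not a test of the family.

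**Figure D1:**
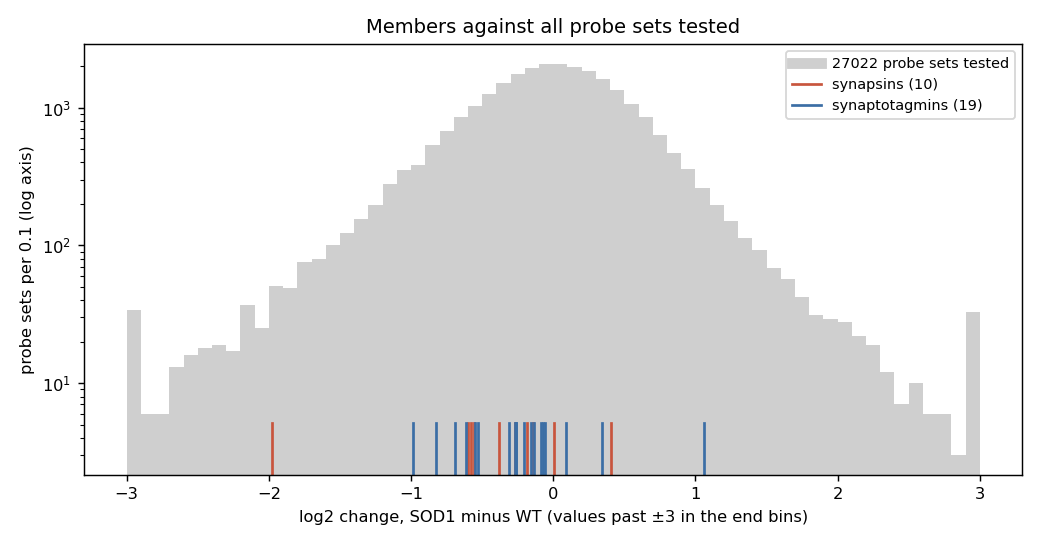
Histogram of the log2 change, SOD1 minus WT, of all 27022 probe sets tested (x axis; y axis, probe sets per bin on a log scale), with short lines at the 10 synapsin (red) and 19 synaptotagmin (blue) probe sets. Most lines lie to the left of 0 within the bulk of the distribution, with Syn1 at -1.98 and a Syt4 probe set at 1.06 the farthest out.

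Among the SOD1 arrays, replicates 2 and 3 most often held the lowest signal. Of the 29 probe sets, 10 were lowest on SOD1 replicate 2, 10 on SOD1 replicate 3 and 3 on SOD1 replicate 1, and the WT arrays were lowest for 3, 2 and 1. Over all probe sets tested these arrays were lowest for 19.35%, 18.94% and 13.20% and the WT arrays for 13.58%, 16.04% and 18.90%. The highest signal lay on WT replicates 1, 2 and 3 for 5, 6 and 8 of the 29, and on SOD1 replicates 1, 2 and 3 for 2, 5 and 3. Over all probe sets tested the WT replicates were highest for 13.01%, 16.10% and 18.56% and the SOD1 replicates for 13.40%, 19.02% and 19.91%.

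Syn1, a synapsin of most mature nerve terminals, was read by 1 probe set. Its log2 signal was 12.11, 12.53 and 12.37 on WT replicates 1, 2 and 3 and 10.57, 10.47 and 10.05 on SOD1 replicates 1, 2 and 3. The groups did not overlap, and the highest SOD1 array lay 1.54 below the lowest WT array. The mean fell from 12.34 ± 0.21 to 10.36 ± 0.28 (SD, n = 3), a change of -1.98 ± 0.28 (SE; 95% confidence interval -2.58 to -1.37; limma, adjusted p = 0.0317). By p it ranked 14 among the 27022 probe sets tested. SOD1 replicate 3, whose Xist level was like that of the WT arrays, had the lowest Syn1 signal of the 6. With Xist as a covariate the change was -2.22 ± 0.35 (limma, adjusted p = 0.04998). The adjusted p was above 0.05 when WT replicate 1 (0.0879) or 2 (0.146) was left out, at changes of -2.09 and -1.88, and likewise for SOD1 replicates 2 (0.112) and 3 (0.0635), at -2.03 and -1.82. It stayed below 0.05 without either other array (0.0446 and 0.0488), and it was 0.294 without a variance trend.

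Syn2, a second synapsin of vesicles in many neuron types, was read by 6 probe sets, of which 0 passed the test. The brightest gave 14.51, 14.39 and 14.91 in WT and 14.30, 14.63 and 14.32 in SOD1 on replicates 1, 2 and 3. The groups overlapped, and the change was -0.19 ± 0.17 (SE; 95% confidence interval -0.57 to 0.20; limma, adjusted p = 0.665), an interval that does not reach the size of the Syn1 change. The second brightest was at 13.93, 13.90 and 13.54 in WT and at 13.72, 12.91 and 13.06 in SOD1, a change of -0.56 ± 0.23 (adjusted p = 0.306). The other 4 probe sets of Syn2 ranged from -0.60 to 0.41. Their estimates differ in sign, so the sign for Syn2 depended on the probe set.

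Syn3, a synapsin best known from early neuronal development, had 3 probe sets with estimates of -0.58, -0.14 and -0.27, and 0 passed the test. The brightest was at 12.01, 11.85 and 12.10 in WT and at 11.28, 12.09 and 10.86 in SOD1 (-0.58 ± 0.32, 95% confidence interval -1.29 to 0.13, limma adjusted p = 0.438). The estimate was -0.92 without SOD1 replicate 2 and -0.30 without SOD1 replicate 3. SOD1 replicate 2 lay within the WT range, and the other SOD1 arrays lay below it. The second probe set showed the same order of the SOD1 arrays, at 10.004, 10.95 and 9.52 against 10.43, 10.41 and 10.07 in WT.

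Each of the 3 synapsin genes has a gene of a tissue inhibitor of metalloproteinases inside its span in the RefSeq annotation: Timp1 in Syn1, Timp4 in Syn2 and Timp3 in Syn3. None of their probe sets passed the test. Timp1 was at 8.77 ± 1.58 in WT and 10.81 ± 0.77 in SOD1 (SD, n = 3), a change of 2.05 ± 0.69 (SE; limma, adjusted p = 0.215) with a sign opposite to that of Syn1. The Timp4 probe sets gave 0.11 ± 0.33 and 0.64 ± 0.36, and the brightest of 4 for Timp3 gave -1.11 ± 0.25 (adjusted p = 0.115).

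**Figure D2:**
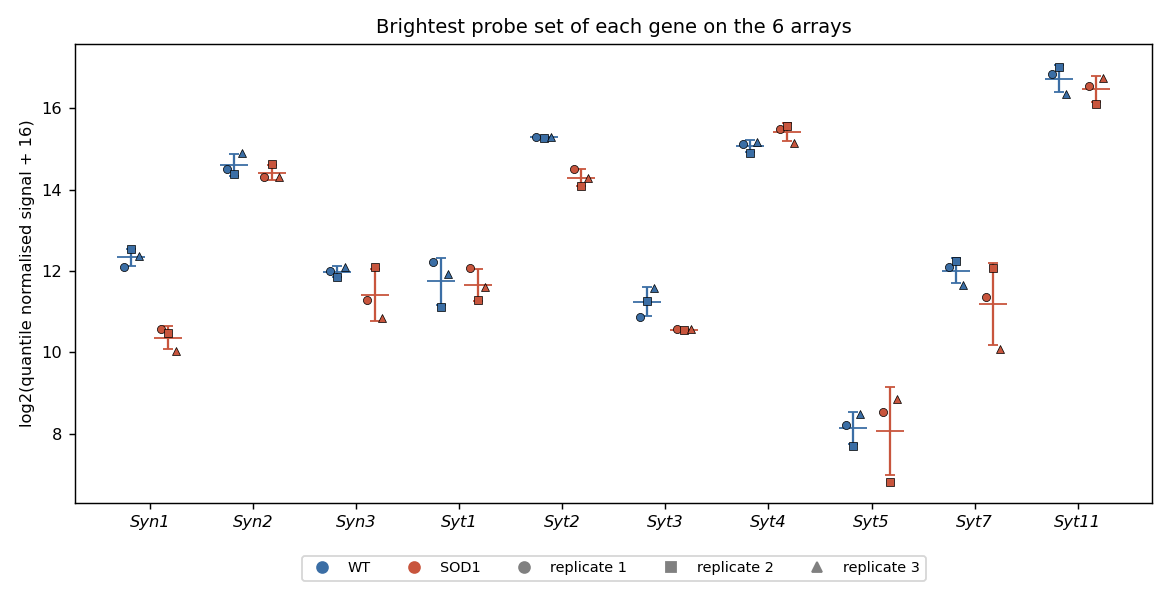
Log2 signal of the brightest probe set of each gene on the 6 arrays (y axis), for WT (blue) and SOD1 (red), with a marker shape for each replicate number, horizontal bars at the group means and error bars of 1 SD (n = 3). The groups are apart for Syn1, Syt2 and Syt3 and overlap for the other 7 genes. Over all 13123 genes by brightest probe set, they are apart for 1472 with SOD1 lower and for 1401 with SOD1 higher. Heights of different genes are not comparable, since each probe set has its own affinity.

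Of the calcium sensors that trigger fast release, Syt2 fell in its brightest probe set and Syt1 did not pass the test. The bright Syt2 probe set was at 15.28, 15.27 and 15.30 in WT and at 14.51, 14.09 and 14.28 in SOD1 on replicates 1, 2 and 3. The WT arrays were almost equal, and each SOD1 array lay at least 0.76 below them. The mean went from 15.28 ± 0.01 to 14.29 ± 0.21 (SD, n = 3), a change of -0.99 ± 0.14 (SE; 95% confidence interval -1.30 to -0.67; limma, adjusted p = 0.0327, rank 18 by p). Both other Syt2 probe sets were dim, at WT means of 9.92 and 9.92, and gave -0.06 ± 0.42 and -0.27 ± 0.43 with overlapping groups. The 95% confidence interval of the dimmest, -1.22 to 0.68, holds the change of the bright probe set, and that of the other, -0.98 to 0.86, ends just short of it. Averaged over its 3 probe sets, Syt2 changed by -0.44 ± 0.28 (limma, adjusted p = 0.485). The adjusted p of the bright probe set was above 0.05 when WT replicate 1 (0.109) or 2 (0.146) was left out, at -0.99 each, and likewise for SOD1 replicates 2 (0.112) and 3 (0.0778), at -0.89 and -0.98. It was 0.0770 with median centring (-0.81), 0.0786 with Xist as a covariate (-0.996) and 0.344 without a variance trend.

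Syt1, the fast calcium sensor of most forebrain synapses, was read by 4 probe sets. The brightest was at 12.21, 11.10 and 11.92 in WT and at 12.09, 11.29 and 11.60 in SOD1. The SOD1 arrays lay within the WT range, and the change was -0.09 ± 0.34 (95% confidence interval -0.83 to 0.65, limma adjusted p = 0.931). The other 3 Syt1 probe sets were dim, with WT means between 8.08 and 8.72, and ranged from -0.53 to -0.13. In the Syt1 probe set with the lowest mean, SOD1 replicate 3 was at 6.82, at the background level, while SOD1 replicate 2 was the highest of the 6 arrays at 8.83.

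Syt3, Syt5 and Syt7 are calcium-binding isoforms with slower or less well defined roles, Syt7 being tied to asynchronous release and vesicle replenishment. The single Syt3 probe set was at 10.88, 11.27 and 11.59 in WT and at 10.57, 10.54 and 10.56 in SOD1. The SOD1 arrays were almost equal and all below WT, but the lowest WT array was only 0.31 higher, and the change of -0.69 ± 0.29 missed the threshold over all genes (95% confidence interval -1.33 to -0.05; limma, adjusted p = 0.313). Syt5, also read by 1 probe set, was dim at 8.22, 7.71 and 8.49 in WT and 8.54, 6.82 and 8.85 in SOD1, where replicate 2 was at the background level. Its change of -0.07 ± 0.62 has a 95% confidence interval from -1.44 to 1.30, too wide to place it.

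Syt7 had 4 probe sets, and 3 passed the filter, with estimates of -0.83 ± 0.43, -0.55 ± 0.37 and -0.62 ± 0.36 and 0 past the test (limma, adjusted p = 0.408, 0.525 and 0.458). That of the brightest was -1.28 without SOD1 replicate 2 and -0.29 without SOD1 replicate 3. The brightest was at 12.10, 12.26 and 11.66 in WT and at 11.36, 12.08 and 10.10 in SOD1. SOD1 replicate 2 lay inside the WT range, as it did for Syn3, and replicate 3 was the lowest array in all 3 probe sets. The probe set left out, at 6.40, 7.42 and 6.59 in WT and 6.91, 8.21 and 7.26 in SOD1, was no higher than background on 2 arrays of each genotype. Averaged over the 3 that were kept, Syt7 was at -0.66 ± 0.30 (adjusted p = 0.325).

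Syt4 and Syt11 are the isoforms that lack calcium-binding residues and are found on Golgi-derived and dense-core carriers. The Syt4 estimates were positive, whereas the sign of some Syt11 estimates turned with the scaling. Syt4, known as a gene induced by neuronal activity, had 2 probe sets, both with a positive estimate. The dimmer was at 12.51, 12.65 and 13.41 in WT and at 13.83, 14.11 and 13.80 in SOD1. The groups did not overlap, with 0.39 between them. The change of 1.06 ± 0.25 (95% confidence interval 0.52 to 1.60) missed the threshold over all genes (limma, adjusted p = 0.117). Dropping WT replicate 3, the WT array nearest to the SOD1 arrays, raised the estimate to 1.34 ± 0.21, which passed (limma, adjusted p = 0.0386). Dropping any other single array kept the estimate between 0.88 and 1.12, short of the threshold (limma, adjusted p from 0.143 to 0.352). The brighter Syt4 probe set was at 15.11, 14.90 and 15.17 in WT and at 15.50, 15.56 and 15.15 in SOD1. SOD1 replicate 3 fell among the WT arrays there, and the change was 0.34 ± 0.14 (adjusted p = 0.309). That change was 0.14 ± 0.17 with Xist as a covariate (adjusted p = 0.758) and 0.56 ± 0.14 with median centring (adjusted p = 0.117).

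Syt11, known to restrain endocytosis, was read by 5 probe sets, 4 of them bright. The brightest was at 16.83, 17.00 and 16.35 in WT and at 16.54, 16.11 and 16.73 in SOD1, with groups that overlapped (-0.26 ± 0.18, limma adjusted p = 0.535). The other bright ones gave -0.31 ± 0.14, -0.20 ± 0.10 and -0.26 ± 0.16, and the fifth 0.09 ± 0.29. One of them separated the groups, at 15.68, 15.74 and 15.63 in WT and 15.50, 15.45 and 15.48 in SOD1, a gap of 0.13 (adjusted p = 0.395). SOD1 replicate 2 was the lowest array in 4 of the 5. With median centring the estimate of the brightest was 0.012 and that of the separated one 0.014, so their sign turned with the scaling.

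With Xist as a covariate, 24 of the 29 estimates were again negative and that of Syn1 was the only one to pass, but several sizes changed by over 1.5 times. The brightest Syt7 probe set moved most, from -0.83 to -1.76 ± 0.37 (limma, adjusted p = 0.0923), and the next brightest of Syt7 went to -0.95. The 3 Syn3 probe sets went from -0.58, -0.14 and -0.27 to -1.02, -0.70 and -0.077. The brightest Syt1 probe set went to -0.14 and the dim ones to -0.88, -0.46 and -1.25. The dimmest Syn2 probe set went from -0.38 to -0.97 and the dim Syt2 one at -0.06 to -0.10. For Syt5 the estimate was 0.60. Among the Syt11 probe sets, that at -0.26 with the brightest signal went to -0.080, the other at -0.26 to -0.17 and that at 0.09 to 0.34. SOD1 replicate 3 is the only SOD1 array at the Xist level of the WT arrays, so these estimates lean on it.

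**Figure D3:**
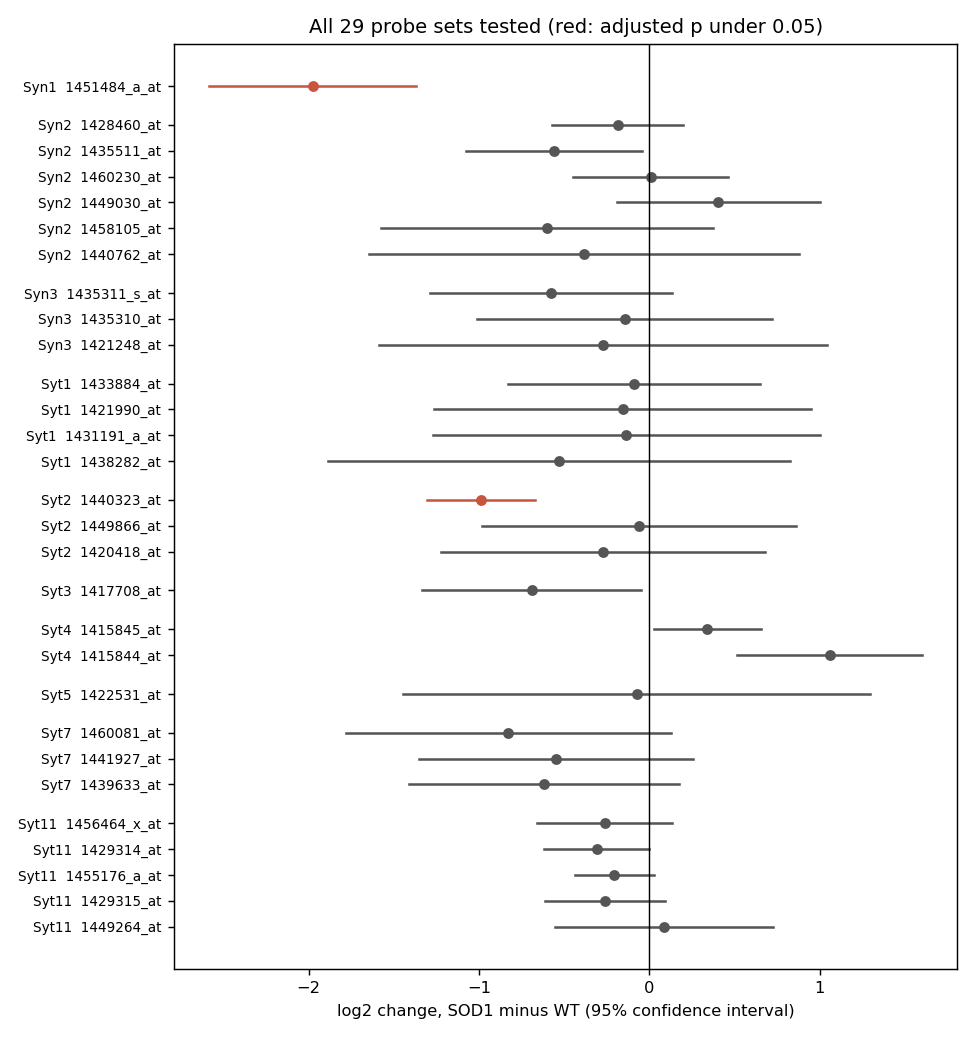
Log2 change, SOD1 minus WT (x axis), of the 29 probe sets tested, by gene and from bright to dim within a gene, with 95% confidence intervals from limma. The Syn1 probe set (-1.98) and the brightest Syt2 probe set (-0.99), in red, passed at an adjusted p under 0.05, and both Syt4 intervals lie above 0 without an adjusted p under 0.05.

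**Figure D4:**
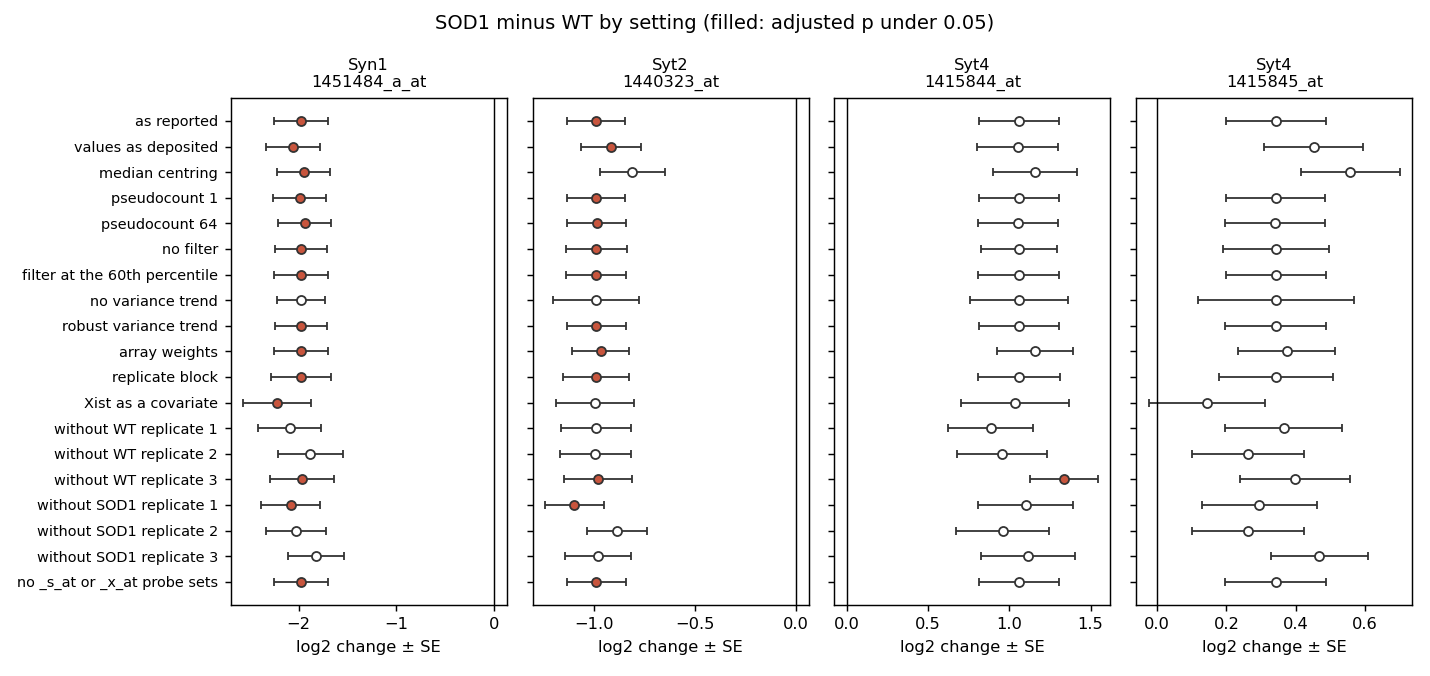
Log2 change ± SE, SOD1 minus WT (x axis), of 4 probe sets (Syn1, the bright one of Syt2, then the dimmer and the brighter of Syt4) under each processing setting (y axis), filled where the adjusted p was under 0.05. The Syn1 estimates stay between -2.22 and -1.82 and the Syt2 estimates between -1.10 and -0.81, while the adjusted p moves across the threshold.

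To ask whether members changed unequally, the difference between their brightest probe sets was taken within each array and compared between genotypes. This removes only what shifts both probe sets of an array by the same log2 amount. For these 8 differences the smallest p that an exact permutation test can give with 3 against 3 arrays is 0.1, so none can pass 0.05. This smallest p was reached by 5 of them (0.16 after Benjamini-Hochberg adjustment over the 8). All 5 include the Syn1 or the bright Syt2 probe set, so their separation is not independent of the 2 calls above. No share of separated differences over other gene pairs was computed. Syn1 minus Syn2 shifted by -1.79 between WT and SOD1, from -2.27 ± 0.36 to -4.06 ± 0.29 (SD, n = 3), without overlap. Syn1 minus Syn3 shifted by -1.40, Syn1 minus Syt1 by -1.89, Syn1 minus Syt2 by -0.99 and Syt2 minus Syt1 by -0.90, each without overlap between the genotypes (exact permutation p = 0.1). With the probe sets of a gene averaged, Syt2 minus Syt1 shifted by only -0.21 with overlap, and it shifted by -0.59 without WT replicate 2. In the same averages Syn1 minus Syt2 shifted by -1.54 and Syt1 minus Syt4 by -0.93, both without overlap. The shift was 0.39 for Syn2 minus Syn3 (exact p = 0.3), -0.43 for Syt1 minus Syt4 (exact p = 0.4) and 0.17 for Syt1 minus Syt11 (exact p = 0.9), with overlap in all 3.

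Pan-neuronal markers, a list of 13 genes such as Stmn2, Tubb3 and Uchl1, were used as a second reference within each array. In bulk RNA fewer neurons and less RNA per neuron cannot be told apart. This reference was chosen to follow either, but how well it does so was not tested. Its brightest gene, Stmn3, read the same 17.65 on WT replicates 1 and 2 and on all SOD1 arrays, and 17.58 on WT replicate 3. The list itself had 8 negative and 5 positive estimates with a median of -0.13, and 0 of 13 passed. At an unadjusted p under 0.05, 4 were lower and 1 higher (limma), against 1167 and 1004 of all 13123 genes by brightest probe set. These 4 were Rbfox3 at -1.13, Elavl3 at -0.89, Ina at -0.60 and Uchl1 at -0.46, and the 1 was Gap43 at 0.81. Single markers of the list thus moved about as far as the bright Syt2 probe set, in either direction. The mean log2 signal of the list went from 15.15 ± 0.09 to 15.01 ± 0.19 between WT and SOD1 (SD, n = 3). Relative to it, Syn1 shifted by -1.83, Syt2 by -0.84 and Syt4 by 0.49, each without overlap between the groups (exact permutation p = 0.1, 0.333 after adjustment over the 10 genes). In their own log2 signals, 1472 of all 13123 genes had groups without overlap and SOD1 lower, and 1401 had SOD1 higher. Relative to the pan-neuronal mean, no such share over all genes was computed. The spread of Syt2 was small on this scale, at -0.68, -0.72 and -0.74 on the SOD1 arrays against 0.10, 0.22 and 0.07 in WT. That separation of Syt2 rested on its bright probe set: averaged over its 3 probe sets, Syt2 shifted by -0.30 with overlap, while Syn1 at -1.83 and Syt4 at 0.84 stayed apart. In these averages Syt3, with its 1 probe set, was apart as well, at -0.55 (exact permutation p = 0.1). For the 7 genes other than Syn1, Syt2 and Syt4 the groups overlapped in their brightest probe sets, with shifts from -0.68 for Syt7 to 0.07 for Syt5.

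**Figure D5:**
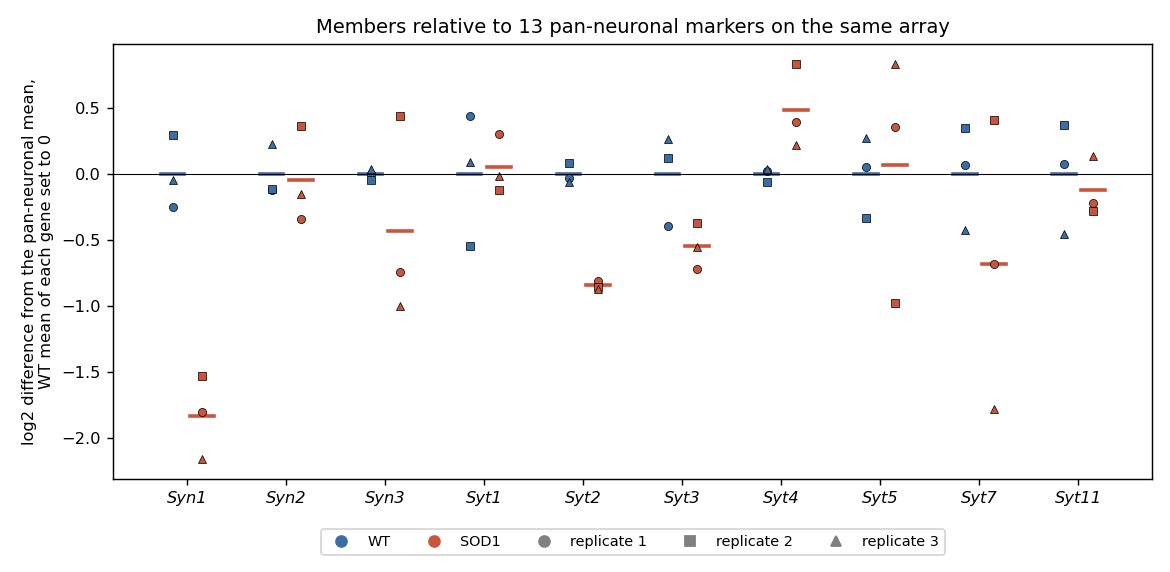
Log2 signal of the brightest probe set of each gene minus the mean of 13 pan-neuronal markers on the same array (y axis), with the WT mean of each gene set to 0, for WT (blue) and SOD1 (red) and with bars at group means (n = 3). Syn1 and Syt2 lie below WT on all 3 SOD1 arrays and Syt4 above WT on all 3.

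Other genes of the vesicle cycle were described through lists of genes by role, each gene by its brightest probe set that passed the filter. Over all 13123 genes taken this way, 0.152% were called lower, 0.122% were called higher and 51.0% had a negative estimate. At an unadjusted p under 0.05, 1167 of them were lower and 1004 higher (limma). Among 12 genes of the fusion machinery, 1 fell: Nsf, the ATPase that takes SNARE complexes apart, went from 16.38 ± 0.03 to 15.69 ± 0.17 (SD, n = 3), a change of -0.69 ± 0.11 (SE; limma, adjusted p = 0.0381). Napa, which recruits it, was at -0.93 ± 0.19 (adjusted p = 0.0883) and Unc13a, a vesicle priming factor, at -1.24 ± 0.48 (adjusted p = 0.271). The list had 9 negative estimates of 12 and a median of -0.15. Among 19 vesicle recycling genes 1 fell as well, Dnm1, the dynamin that pinches vesicles off (-1.20 ± 0.14, adjusted p = 0.0222), with 12 negative estimates and a median of -0.08. A dim probe set of Dnm1 gave 0.02 ± 0.52, and 2 other probe sets of Nsf gave -1.88 ± 0.73 and -0.19 ± 0.24.

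Of the other 4 lists, 0 genes passed. Vesicle membrane proteins had 11 negative estimates of 18 and a median of -0.23 (limma; 6 lower and 1 higher at an unadjusted p under 0.05), with the Rab3 effector gene Rph3a at -1.34 ± 0.25 (adjusted p = 0.0651), Syngr1, a vesicle protein, at -1.10 ± 0.23 (adjusted p = 0.0938) and Slc18a3, the vesicular acetylcholine transporter, at -0.996 ± 0.25 (adjusted p = 0.131). A second Syngr1 probe set pointed the other way, at 1.62 ± 0.49 (adjusted p = 0.173). Active zone genes had 8 negative estimates of 13 (median -0.28; 2 lower and 0 higher at an unadjusted p under 0.05), led by the scaffold gene Rims1 at -0.79 ± 0.22. Kinases and phosphatases that act on synapsins had 9 negative estimates of 14 (median -0.08; 2 lower and 0 higher at an unadjusted p under 0.05), with Camk2b at -0.95 ± 0.24 and Camk2g at -0.42 ± 0.13. For 7 other synaptotagmins the estimates were negative for 4 and positive for 3 (median -0.12; 0 at an unadjusted p under 0.05), with Syt17 at -1.12 ± 0.64 and Syt14 at -0.41 ± 0.43. The median over all genes taken this way was -0.01.

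Markers of other cells moved between the groups together with these genes. Their counts can be set beside those over all 13123 genes given above for the vesicle cycle lists. All 13 microglial markers tested had a positive estimate and 4 rose (median 2.51), and their summed linear signal ran from 10787 to 45454 in WT and from 110713 to 196480 in SOD1. Of 10 astrocyte markers 9 were positive and 2 rose (summed signal 213581 to 223883 in WT, 257102 to 263925 in SOD1). All 9 oligodendrocyte markers were positive and 0 passed (limma; 6 higher at an unadjusted p under 0.05; 191262 to 219948 in WT, 249828 to 268553 in SOD1). All 11 endothelial and mural markers were negative and 1 fell (29986 to 71697 in WT, 6043 to 20373 in SOD1). No marker list had a gene at the background level on all 6 arrays. For neurons, the motor neuron list had 7 negative estimates of 11 and 0 past the test (limma; 3 lower and 1 higher at an unadjusted p under 0.05; 578783 to 633284 in WT, 519936 to 575635 in SOD1), and the pan-neuronal sums were 744926 to 795636 in WT and 646728 to 745723 in SOD1. Markers of other neuron types were dim, with 3 negative and 5 positive estimates of 8 and 0 past the test (0 lower and 1 higher at an unadjusted p under 0.05; 2871 to 4243 in WT, 4455 to 9384 in SOD1). The part of these shifts in the synapsin and synaptotagmin values was not tested. The comparison with pan-neuronal markers is no such test, since its exact p could not fall below 0.1 and it used no glial or vascular markers.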

How the data were processed

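Gene expression was measured in RNA of brainstem motor neurons from 3 WT and 3 SOD1 samples, on 1 array each. T7 amplification, run in 2 rounds per the labels, favours the 3' end of transcripts, so probe sets far from it can read low. The authors deposited 1 linear signal intensity per probe set and array. No source used here names the scanner settings or the algorithm. The 2% trimmed mean was 2500.02 on every array, so the deposited intensities had been scaled to a common mean.

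The 45101 probe sets included 64 controls, which were left out of the tests. Platform annotation gave 1 symbol for 34945 probe sets, several for 932 and none for 9160. Intensities were quantile normalised, 16 was added before log2, and a probe set was kept where its mean log2 signal passed the 40th percentile. SOD1 was compared with WT over all kept probe sets with limma 3.58.1 in R 4.3.3 (lmFit, eBayes with a variance trend, two-sided, Benjamini-Hochberg, threshold 0.05). Confidence intervals use limma's moderated variance. The background level was the 95th percentile of 27 Bacillus control probe sets on each array, between 7.21 and 7.61. An exact permutation test, two-sided, was used for within-array differences (SciPy 1.17.1). The limma step was tested on simulated data. Summed marker signals add the normalised linear signal, 16 included, of the brightest probe set of each gene.

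The genes named were every member, with every kept probe set, and up to 3 genes with the smallest p in each list. Second probe sets of Dnm1, Nsf and Syngr1, the genes overlapping synapsins and the motifs were chosen after their values or sequences were seen. The members and lists were chosen with earlier results of these data known. Promoter sequences are RefSeq's (GRCm38.p6). Figures were drawn with matplotlib 3.10.9.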

Additional observations from a re-analysis of the deposited data

How the results depend on the processing

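Calls depended on the processing more than estimates did. The 50 probe sets called over all genes became 87 with a pseudocount of 64, 106 with a filter at the 60th percentile, 100 with array weights, 17 genes when probe sets were averaged by gene, 191 at a threshold of 0.1 and 1 at 0.01, and 0 with no variance trend (limma; 3247 at an unadjusted p under 0.05). Leaving out 1 array gave 0 to 77 (0 without WT replicate 2, with 2665 at an unadjusted p under 0.05). The 2 synapsin and synaptotagmin calls became 1 with median centring, with Xist as a covariate and with probe sets averaged by gene, where Syn1 kept its call each time, and 0 at a threshold of 0.01 and with no variance trend (4 at an unadjusted p under 0.05). Leaving out 1 array gave 0 to 3 of them. The replicate number as a block gave 76 calls, 40 of them shared with the 50, and kept the calls of Syn1 and Syt2. With Xist as a covariate there were 52, of which 9 were among the 50. Same-numbered WT and SOD1 samples had deviations from their group means that correlated at 0.03, -0.04 and -0.01. No strong effect shared by number was thus seen, but such correlations cannot tell whether same-numbered samples were handled together.

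The estimates that changed sign were not past the test. The Syn2 probe set at 0.01 was -0.013 without normalisation and -0.051 with Xist as a covariate. With median centring the brightest Syt11 probe set was 0.012 and the one with separated groups 0.014. With array weights the brightest Syt1 probe set was 0.019 and Syt5 was 0.072, and Syt5 was 0.60 with Xist as a covariate. Leaving out 1 array gave -0.15 to 0.15 for that Syn2 probe set, -0.54 to 0.17 and -0.61 to 0.090 for the dimmer Syn3 probe sets, -0.41 to 0.15, -0.51 to 0.30 and -0.34 to 0.037 for 3 Syt1 probe sets, -0.41 to 0.25 and -0.63 to 0.087 for the dim Syt2 probe sets, -0.46 to 0.55 for Syt5 and -0.14 to 0.26 for the dim Syt11 probe set. Within arrays, Syt1 minus Syt11 was -0.073 both without normalisation and with median centring, -0.037 with probe sets averaged by gene and -0.28 to 0.45 when 1 array was left out. Relative to pan-neuronal markers, Syt1 was -0.10, -0.10 and -0.084 and -0.21 to 0.28 in these settings, Syt5 was -0.094 in the first and the second of them, and leaving out 1 array gave -0.31 to 0.60 for Syt5, -0.34 to 0.071 for Syt11 and -0.25 to 0.11 for Syn2. Syt5, the dim Syt1 probe sets, the dimmest of Syn3 and the dimmest of Syt7 lay near the background level, which limits what they can show.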
